A study of Mus musculus with 3 samples.

Results

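Type 1 dendritic cell genes were followed in mouse LT-HSCs (long-term haematopoietic stem cells), the rare marrow cells that sustain blood formation. The set held 9 genes, Clec9a, Naaa, Plbd1, Ifi205, Gpr141b, Batf3, Irf8, Wdfy4 and Zbtb46, and each was measured by 1 of the 23185 probe sets that carried a single gene symbol. The first 5 were chosen because their levels on the FLASH array exceeded those on the non-irradiated array by a wide margin, and the other 4 for their known roles. The members' own values are therefore a description. The cells came from female C57Bl/6 mice aged 8 to 10 weeks. The first group was non-irradiated, the second was given 8 Gy of total body irradiation (TBI) at CDR, read here as conventional dose rate, and the third 8 Gy as FLASH, delivery at an ultra-high dose rate. Per the labels, each of the 3 arrays received RNA of 10000 marrow LT-HSCs taken 15 days after TBI. With single arrays no difference has a replicate check and no test could be made, so that every statement concerns these 3 hybridisations. How many mice contributed to an array, and by which gate the cells were sorted, is not given in the sources used here.

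Type 1 conventional dendritic cells take up material from dying cells and present its peptides on MHC class I molecules, a route called cross-presentation that primes CD8+ T cells. They arise in the marrow from progenitors that depend on the cytokine receptor Flt3. The transcription factor IRF8 sets their fate together with PU.1, and BATF3, an AP-1 family factor, sustains Irf8 expression in committed cells. Of the genes described here, Clec9a, Naaa, Plbd1, Ifi205 and Gpr141b belong to the expression profile of the lineage, without being confined to its mature cells. Irf8 is also active in earlier myeloid progenitors.

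Detection was judged against 1364 olfactory, vomeronasal and trace amine receptor genes, assumed here to be silent in blood cells: the brighter array of a pair had to exceed the 95th percentile of these genes. That detection level was 4.15, 4.16 and 4.22 in log2 units for the non-irradiated, CDR and FLASH arrays. The log2 differences of these receptor genes had an SD of 0.21 for either irradiated array against the non-irradiated one and of 0.18 between the irradiated arrays, which is a spread over genes and not over replicates. All 14 measured LT-HSC genes were above the detection level on every array, among them Kit, Slamf1, Procr and Hlf. All 9 members were detected in each comparison.

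Clec9a, Naaa, Plbd1, Ifi205 and Gpr141b were lowest on the non-irradiated array, intermediate on the CDR array and highest on the FLASH array. For Clec9a, Naaa and Plbd1, detected on every array, the log2 differences from the non-irradiated array lay between 2.15 and 2.58 on the FLASH array and between 0.95 and 1.40 on the CDR array. Ifi205 and Gpr141b were under the detection level without irradiation, so that for them lower bounds are given. Batf3, Irf8, Wdfy4 and Zbtb46 stood apart from them, with no difference above 0.22 between any arrays. Whether more transcript per cell or more cells carrying it lay behind a higher level cannot be told apart in RNA pooled from many cells.

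Clec9a encodes DNGR-1, a C-type lectin receptor that recognises actin filaments exposed by dead cells. Its log2 level was 4.23 without irradiation, just above the detection level, 5.18 after CDR and 6.38 after FLASH. The difference was 0.95 for CDR against non-irradiated, 2.15 (4.44-fold) for FLASH against non-irradiated, and 1.20 (2.29-fold) for FLASH against CDR. Clec9a had the smallest CDR difference of these 5 genes and the largest difference between the irradiated arrays.

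Naaa encodes a lysosomal amidase that breaks down N-acylethanolamines, lipid mediators that dampen inflammation. It read 5.50 without irradiation, 6.78 after CDR and 7.89 after FLASH. Both steps of this gene exceeded 2-fold, with log2 differences of 1.28 and 1.11. Plbd1 encodes a phospholipase B-like protein, and its log2 levels were 6.27, 7.68 and 8.86 in the same order of arrays. Plbd1 was well above detection without irradiation too, so its 6.00-fold difference on the FLASH array (log2 2.58) was measured on both sides.

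Ifi205 belongs to the Ifi200 (PYHIN) family of interferon-inducible nuclear proteins. It read 3.88 without irradiation, under the detection level, 5.48 after CDR and 6.47 after FLASH. Against the detection level, Ifi205 was at least 2.52-fold higher after CDR and at least 4.99-fold higher after FLASH. Gpr141b encodes an orphan G protein-coupled receptor, and Karma is among its synonyms in the RefSeq gene table. It read 3.92, under the detection level, then 5.42 and 6.03, or at least 2.42-fold higher after CDR and at least 3.69-fold higher after FLASH. Gpr141b differed least between the irradiated arrays, by 0.61 (1.53-fold).

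The CDR array carried part of the FLASH difference. For Clec9a the CDR difference amounted to 44.3% of the FLASH difference, for Naaa to 53.7% and for Plbd1 to 54.3%. No share is given for Ifi205 and Gpr141b, whose differences from the non-irradiated array are bounds. Both differences use the same non-irradiated array.

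**Figure D1:**
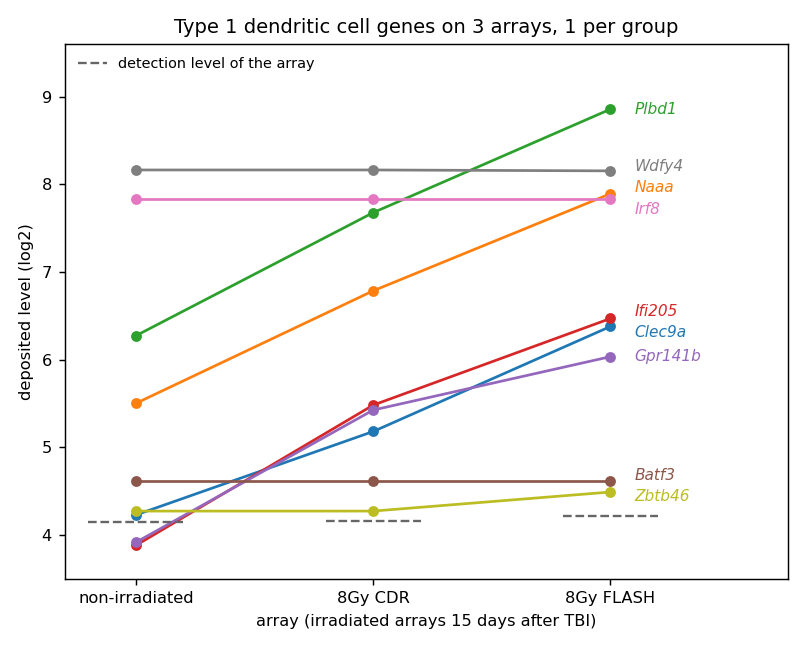
Deposited log2 level (vertical axis) of the 9 members on the 3 arrays (horizontal axis), 1 array per group. Each point is 1 array, a line joins the values of 1 gene, and dashes mark the detection level of each array. Clec9a, Naaa, Plbd1, Ifi205 and Gpr141b are higher on the CDR than on the non-irradiated array and highest on the FLASH array, while Batf3, Irf8, Wdfy4 and Zbtb46 run nearly level.

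Irf8, the factor that sets the lineage, read 7.83 on all 3 arrays. Batf3, the factor that maintains it, read 4.62 on all 3 arrays. Wdfy4, a large BEACH-domain protein needed for cross-presentation of cell-associated antigen, read 8.16 on the non-irradiated and CDR arrays and 8.15 on the FLASH array. Zbtb46, a zinc finger factor that marks classical dendritic cells, read 4.27, 4.27 and 4.49. Its difference of 0.22 on the FLASH array was about as large as the SD over the receptor genes, 0.21.

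Exact ties of this kind were common in the deposited values. Of 13527 genes above the detection level on any array, 27.2% held the same value on all 3 arrays, as Irf8 and Batf3 did. Different genes also shared values: the 25206 probe sets took 13584 distinct values on the non-irradiated, 12484 on the CDR array and 12735 on that of FLASH. Among the members higher on the irradiated arrays, the CDR value of Clec9a was held by 45 probe sets and that of Naaa by 6. The FLASH values of Ifi205 and Plbd1 were held by 18 and 3, and the other values of these members by 1 each. The value of Batf3 was held by 85, 96 and 102 probe sets on the non-irradiated, CDR and FLASH arrays. That of Irf8 was held by 1 probe set on each array. The tie of Irf8 thus stood at a value of its own, and that of Batf3 at a value shared with many genes and close to the detection level. How such ties arose in the authors' processing was not tested, and they leave small differences of these genes unresolved.

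Counted by fold, on the CDR array 4 of the 9 members stood 2-fold or more above their non-irradiated level, where 0.766% of all 13448 detected genes were. On the FLASH array 5 of 9 were, where 1.17% of all 13288 detected genes were. Between the irradiated arrays 3 of 9, Clec9a, Naaa and Plbd1, passed 2-fold in favour of FLASH, beside 0.85% of 13184 detected genes. Ifi205 lay just short of 2-fold there, at 0.99. No member lay 2-fold or more below in any comparison, while 2.36%, 1.75% and 0.144% of detected genes were in the same order. The median log2 difference of the 9 members was 0.95, 2.12 and 0.61, against 0.00 over all detected genes in each comparison. With values under the detection level set to it, the median for FLASH against non-irradiated was 1.88 and the other 2 kept their value. The rule chose members on these arrays, so nothing is read from these shares. Ranked by deposited difference between the FLASH and non-irradiated arrays, Ifi205 was number 15 and Plbd1 number 16 from the top, Naaa number 19, Clec9a number 25 and Gpr141b number 26.

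The stepwise order of levels was rare. Genes at least 0.5 higher in log2 level on the CDR than on the non-irradiated array, and a further 0.5 or more higher after FLASH than after CDR, made up 0.222% of detected genes, or 30 of 13527. This count was chosen after the values were seen. It included the 5 members named above, and from the lists described here also Xcr1, Tlr3, H2-Aa, H2-Eb1, Tpsb2 and Mcpt4. Of the 30, 5 were antibody segments or gene models. The opposite order, at least 0.5 lower at both steps, was found for 19 genes (0.14%) and for 0 members.

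**Figure D2:**
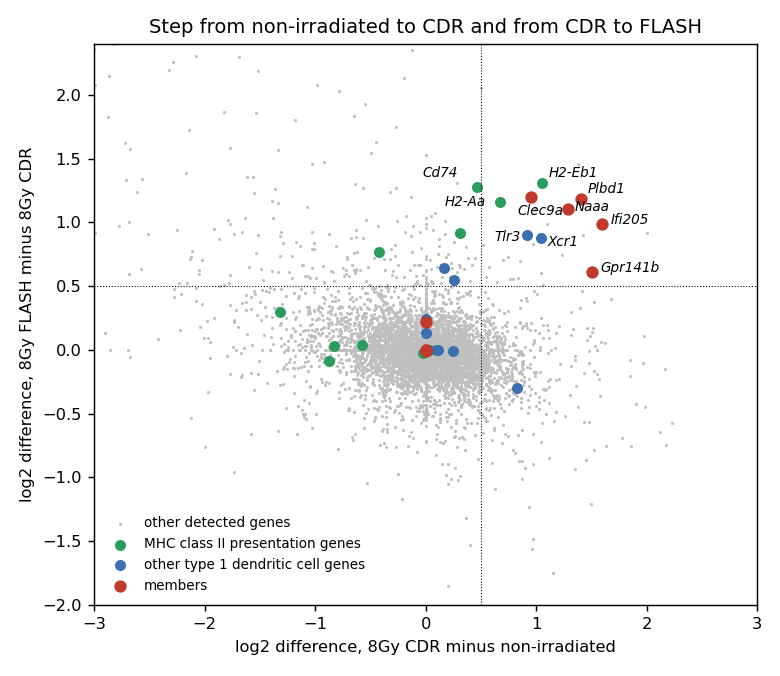
Log2 difference of the CDR minus the non-irradiated array (horizontal axis) against that of the FLASH minus the CDR array (vertical axis) for genes above the detection level on any array; dotted lines stand at 0.5 on each axis. Members, other type 1 dendritic cell genes and MHC class II presentation genes are coloured, all other detected genes are grey, and 59 genes lie beyond the axes. The CDR array enters both axes, and 5 of 9 members lie in the upper right corner.

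Likeness to Clec9a was measured as the Euclidean distance between centred log2 profiles over the 3 arrays, among 12065 detected genes, leaving out gene models, pseudogenes, small RNAs, histones, olfactory or vomeronasal receptors and antibody or T cell receptor segments by symbol. With 3 arrays such a ranking describes little more than the size of 2 differences. The nearest gene was H2-Eb1 (distance 0.15), an MHC class II chain that read 6.61, 7.66 and 8.97. Tcp10c (0.15) came second and was above the detection level on the FLASH array alone (2.54, 3.63 and 4.62). Next came Xcr1 (0.24), Naaa (0.24), H2-Aa (0.25), Tlr3 (0.25), Sfrp4, Plbd1, Cd74 and Dnase1l3. Ifi205 and Gpr141b followed at numbers 13 and 14, while Zbtb46 was number 1623 and Irf8 and Batf3 were tied at number 4325.

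Other genes of the type 1 lineage were taken from a list of 16. Of 13 detected on the FLASH or non-irradiated array, 2 stood 2-fold or more above on the FLASH array, 11 lay within 2-fold and 0 stood 2-fold or more below. Their median difference was 0.24, with 10 higher, 0 lower and 3 equal. Over all 13288 detected genes 1.17% stood 2-fold or more above, and 4492 were higher, 4379 lower and 4417 equal. Of the genes counted as higher, Rab7b (0.03), Cd8a (0.11) and Ppt1 (0.13) differed by less than the SD over the receptor genes, 0.21. Xcr1, the chemokine receptor that defines these cells, read 4.20 without irradiation, 5.24 after CDR and 6.11 after FLASH, a difference of 1.91 (3.77-fold) for FLASH. Tlr3, the endosomal sensor of double-stranded RNA, read 4.09 without irradiation, under the detection level, then 5.01 and 5.92. On the FLASH array Tlr3 was thus at least 3.40-fold higher. Xcr1 and Tlr3 thus showed the same order of arrays as Clec9a, with CDR differences of 1.04 and 0.92.

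Id2, an inhibitor of E proteins that type 1 dendritic cells require, read 6.73, 6.98 and 7.53. The adhesion molecule gene Cadm1 read 5.14, 5.31 and 5.95. Both were highest on the FLASH array and within 2-fold of the non-irradiated one. Nfil3, a repressor that acts early in the lineage, was instead highest on the CDR array, at 6.45 against 5.62 on the non-irradiated and 6.15 on the FLASH array. Itgae, which encodes the integrin chain CD103 of tissue type 1 cells, was under the detection level on all 3 arrays, at 3.99, 3.99 and 4.12. Cd8a, a marker of lymphoid-tissue type 1 cells, read 4.25, 4.37 and 4.37, and Snx22 read 4.81 on all 3 arrays. Some markers of the lineage thus shared the order of arrays of Clec9a and others did not. The list was chosen with earlier results of these data known, so it is no independent check of the label of the set. On the CDR array 1 of 12 detected genes of the list, Xcr1, passed 2-fold against the non-irradiated array.

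**Figure D3:**
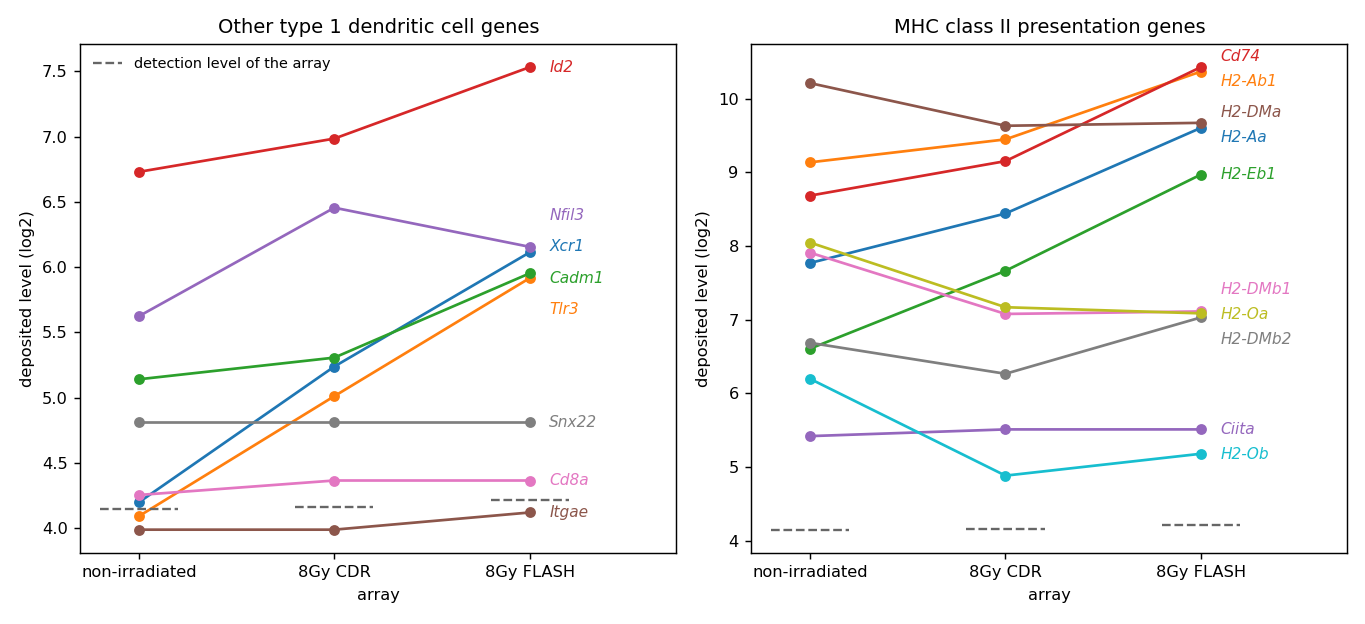
Deposited log2 level (vertical axes) on the 3 arrays (horizontal axes) for 8 other type 1 dendritic cell genes (left) and 10 MHC class II presentation genes (right). Each point is 1 array, lines join the values of 1 gene, and dashes mark the detection level of each array. Xcr1 and Tlr3 on the left, and H2-Aa, H2-Ab1, H2-Eb1 and Cd74 on the right, are highest on the FLASH array, while H2-Oa and H2-Ob are highest on the non-irradiated array.

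Among 15 detected genes that dendritic cell subsets share, 1 stood 2-fold or more above and 1 stood as far below the non-irradiated array on the FLASH array. Over all detected genes the shares were 1.17% above and 1.75% below. Slamf7, a surface receptor also found on other immune cells, read 5.35, 4.86 and 6.40. Flt3, the receptor on which dendritic cell progenitors depend and which early multipotent progenitors also carry, read 8.69, 7.64 and 7.22. Flt3 was therefore lower by 1.47 on the array where Clec9a was highest. Cd86, a costimulatory molecule, was at 4.56 on the non-irradiated and CDR arrays and at 5.55 on the FLASH array. Itgax, the integrin CD11c of classical dendritic cells, was above the detection level on the FLASH array alone (4.01, 4.01 and 4.32).

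Of 20 regulators of dendritic cell development, 19 lay within 2-fold on the FLASH array relative to the non-irradiated one. So did 12900 of all 13288 detected genes, so the count does not set these regulators apart. The regulator past 2-fold was Flt3, which was lower. In that comparison 7 of the 20 were higher and 11 lower, with Id2 higher by 0.80 and Kit lower by 0.87. Spi1, which encodes PU.1, the partner of IRF8, read 10.54, 10.64 and 10.49. Ikzf1 read 9.27 on each array, and Csf2rb, a shared cytokine receptor chain, read 7.87, 8.65 and 8.43.

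Partners and relatives of BATF3 and IRF8 all lay within 2-fold on the FLASH array, 16 of 16 detected, with 2 higher and 10 lower. Of all 13288 detected genes, 12900 lay within 2-fold in that comparison, with 4492 higher and 4379 lower. Batf, another gene of the BATF family, read 7.37 on the non-irradiated array and 7.14 on both irradiated arrays. The AP-1 partner genes Jun and Fos were lower by 0.78 and 0.85 on the FLASH array and by 0.95 and 1.05 on the CDR array, and Jund, another of them, read 8.27, 7.24 and 7.45. None of the IRF genes measured beside Irf8 was at least 2-fold apart between arrays, and Irf2 differed most, at 8.52, 7.79 and 7.98.

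Cross-presentation genes, which serve the antigen-presenting function that Wdfy4 also serves, were within 2-fold for 19 of 19 in all 3 comparisons. Most detected genes were too. Over all genes the counts were 13028 of 13448 for CDR and 12900 of 13288 for FLASH, each against non-irradiated. Between the irradiated arrays the count was 13053 of 13184. Tap1, a subunit of the peptide transporter, read 8.45, 8.39 and 8.14, and Syk, the kinase downstream of DNGR-1, read 7.59, 7.13 and 7.18. Their median difference on the FLASH array was 0.00.

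MHC class II presentation genes were divided. Of 11 detected, 4 stood 2-fold or more above the non-irradiated array on the FLASH array, beside 1.17% of all detected genes. They were H2-Eb1 (2.36), H2-Aa (1.83), Cd74, the invariant chain (1.74), and H2-Ab1 (1.23). The peptide-loading genes H2-DMa and H2-DMb1 read lower by 0.54 and 0.80, and H2-Ob, which restrains loading in B cells, by 1.02. H2-DMb2 went the other way and read higher by 0.34 on the FLASH array (6.69, 6.27 and 7.03). The class II transactivator gene Ciita read 5.42, 5.51 and 5.51. Of these 4 class II genes higher on FLASH, the CDR array carried a difference of 1.06 for H2-Eb1 and of 0.67 for H2-Aa. For Cd74 and H2-Ab1 it carried 0.47 and 0.31, under the 0.5 of the stepwise count.

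Relatives of the members were examined because probes can take up signal from similar transcripts. Of 11 measured Ifi200 family genes besides Ifi205, 6 were detected on any array, and 0 passed 2-fold upward on the FLASH array. Ifi209 was lower, at 6.14, 5.48 and 4.77, and Ifi203 read 8.29, 7.75 and 7.58. Ifi207 was above the detection level on the FLASH array alone (3.76, 3.65 and 4.62), and Ifi204, Ifi202b, Ifi208, Ifi213 and Ifi214 were under it on all 3 arrays. These genes form a multigene family, so the value of Ifi205 holds some uncertainty. Gpr141, the paralog and chromosomal neighbour of Gpr141b, read 4.37, 4.97 and 4.65 and was thus highest on the CDR array. Plbd2 read 7.01, 7.24 and 7.24 beside Plbd1, and Asah1, the acid ceramidase related to Naaa, 7.16, 7.16 and 7.04. Over 23 relatives of the other members, 19 were detected, and 0 were 2-fold or more apart between the FLASH and non-irradiated arrays. Of all detected genes, only 1.17% were that far above and 1.75% that far below in this comparison. Clec2d, a lectin gene, passed 2-fold downward on the CDR array (9.79, 8.37 and 8.83).

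The nearest measured protein-coding genes beside each of the 5 higher members did not share their order of arrays. Clec1b and Clec1a flank Clec9a and were under the detection level on all 3 arrays. Sdad1, beside Naaa, read 8.59, 9.28 and 9.11, and Atf7ip, beside Plbd1, read 8.85, 8.76 and 8.65. This look at neighbours was added after the values were seen.

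Promoter windows of the members were searched for short motifs, and the windows that show a match are printed together with that of Clec9a, which shows none. RefSeq windows (build GRCm38.p6) were found for all 9 members, with 10 windows in all because Irf8 has 2. Each window runs from 250 bases before a gene's start to 50 bases after it, and both strands were searched. The interferon response motif, GAAA and GAAA with any 2 bases between, was found in windows of 2 members, Ifi205 and Gpr141b, and in 3.44% of all 32851 windows. The ETS-IRF composite motif, GGAA and GAAA with any 2 bases between, a form bound by PU.1 with IRF8, was found in 0 member windows and in 2.72% of all. The AP-1 motif TGANTCA was found in 1 member window, that of Zbtb46 (7.81% of all). There it lies within an AP-1-IRF composite motif, GAAA followed directly by TGANTCA, found in 0.125% of all windows. The second composite motif, TTTC and TGANTCA with any 4 bases between, was found in 0 member windows and in 0.119% of all. A match is a description and no evidence of binding. The 250 bases before the start follow, 5′ to 3′ on the gene's strand, with the match in capitals. They lie at chr6:129408612-129408861 (plus strand) for Clec9a, chr1:174031756-174032005 (minus strand) for Ifi205, chr13:19732952-19733201 (minus strand) for Gpr141b and chr2:181424389-181424638 (minus strand) for Zbtb46.
Clec9a: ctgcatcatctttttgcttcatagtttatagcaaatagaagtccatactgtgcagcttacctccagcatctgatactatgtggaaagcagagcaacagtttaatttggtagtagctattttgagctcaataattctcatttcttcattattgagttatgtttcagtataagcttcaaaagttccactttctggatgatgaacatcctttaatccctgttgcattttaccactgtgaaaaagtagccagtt
Ifi205: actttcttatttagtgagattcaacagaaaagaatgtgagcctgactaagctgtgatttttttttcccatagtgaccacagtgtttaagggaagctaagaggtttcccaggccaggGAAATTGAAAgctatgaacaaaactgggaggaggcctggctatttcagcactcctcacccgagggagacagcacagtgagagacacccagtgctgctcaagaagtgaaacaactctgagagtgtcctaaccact
Gpr141b: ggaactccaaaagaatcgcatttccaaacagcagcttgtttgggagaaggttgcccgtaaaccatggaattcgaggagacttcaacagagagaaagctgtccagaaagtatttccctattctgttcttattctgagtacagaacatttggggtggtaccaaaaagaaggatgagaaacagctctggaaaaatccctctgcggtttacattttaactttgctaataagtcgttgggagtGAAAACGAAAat
Zbtb46: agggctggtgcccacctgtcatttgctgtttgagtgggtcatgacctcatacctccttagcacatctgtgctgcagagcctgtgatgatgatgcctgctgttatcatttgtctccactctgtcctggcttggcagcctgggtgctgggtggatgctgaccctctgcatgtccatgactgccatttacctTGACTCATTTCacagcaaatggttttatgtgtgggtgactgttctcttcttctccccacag
The Ifi205 match spans bases 134 to 125 before the start, and a second match in that window lies after the start and is not printed. The Gpr141b match spans bases 12 to 3 before the start. The Zbtb46 match, on the opposite strand, spans bases 61 to 51 before the start, and that window lies inside the span of the gene because other transcripts start farther upstream. Of the 5 members that were higher on the irradiated arrays, Clec9a, Naaa and Plbd1 held none of the 5 motifs in this window.

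Markers of other cell types were set beside the members. Between the FLASH and non-irradiated arrays, 1.17% of all 13288 detected genes were 2-fold or more above and 1.75% as far below. Genes of type 2 dendritic cells had 0 of 9 detected genes 2-fold or more above and 2 as far below on the FLASH array, relative to non-irradiated. Of this list, Cd209a was under the detection level on all 3 arrays (2.51), while Sirpa was well above it and nearly level (7.88, 7.88 and 7.80). The 2 lower genes were Itgam, the integrin CD11b (6.42, 5.76 and 5.08), and Ltb, which lymphoid cells also express (8.25, 5.56 and 6.57). Plasmacytoid dendritic cell genes had 0 of 8 above and 1 below by the same fold. Siglech was under the detection level throughout (3.81, 3.89 and 3.89), while Bst2 (9.22, 9.16 and 9.22) and Tcf4 (7.68, 7.61 and 7.61) were well above it. Lag3, which T cells also express, read 6.65, 4.98 and 4.77, and Ly6d, also found on early B lineage cells, 7.35, 5.44 and 6.38. On a linear scale the levels of the 13 measured type 2 genes summed to 1170 on the non-irradiated, 821 on the CDR array and 852 on that of FLASH. Those of the 13 measured plasmacytoid genes summed to 3476, 3440 and 2562. Such sums weigh the brightest genes most. In the plasmacytoid list that was Ly6c2 (11.08, 11.21 and 10.49), which is also counted among the monocyte and macrophage genes below. The 16 measured other type 1 genes summed to 2223, 2557 and 2728, and all 9 members to 729, 996 and 1497. In the other type 1 sum the brightest gene, Cd24a (10.28, 10.53 and 10.51), weighs most, and Xcr1 and Tlr3 weigh little. The summed level of Clec9a, Naaa, Plbd1, Ifi205 and Gpr141b alone was 171, 439 and 938 on the same arrays. Those 5 were chosen for their high FLASH level, so the rise of that sum follows from the choice and is not comparable with the list sums.

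Monocyte and macrophage genes ordered the arrays differently. Of 14 detected on the FLASH or non-irradiated array, 0 passed 2-fold in either direction, with a median of -0.11 and a summed linear level of 3678, 4551 and 3036 over 16 measured genes. The brightest of them was Ly6c2, which the plasmacytoid list also held. Csf1r read 6.36, 6.59 and 5.58, and Ccr2, a chemokine receptor, 8.17, 9.62 and 8.75. Mpeg1, a pore-forming protein of phagocytes, was highest on the FLASH array and read 6.48, 6.71 and 7.40. C1qa (6.12, 5.82 and 5.98), C1qb (6.67, 6.39 and 6.54) and C1qc (5.89, 5.75 and 5.80) were highest on the non-irradiated array. Fcgr1, Adgre1, Ms4a7 and Mertk each held the same value on all 3 arrays. Of 12 measured B cell genes, 7 were under the detection level on all 3 arrays, Ms4a1 and Cd22 among them. None of the 5 detected passed 2-fold upward on the FLASH array, and Cd79b read 9.04, 8.58 and 8.05. Of 15 measured T and NK cell genes, 8 were under it, Cd3e at 3.10 on each array included. The 7 detected on any array included Nkg7 (10.94, 11.29 and 11.11), Thy1 (8.15, 8.32 and 8.32) and Klrb1c (5.99 on each array).

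Other lineage lists also held genes that differed on the FLASH array. Of all detected genes, 1.17% were 2-fold or more above the non-irradiated array there and 1.75% as far below. In the list of mast cell and basophil genes, Tpsb2 was at least 6.31-fold and Mcpt4 at least 1.96-fold above the non-irradiated array, where both were under the detection level, and Prss34 read 9.25, 6.53 and 7.87. In the granulocyte list, 1 gene, Lcn2 (6.97, 9.15 and 8.40), passed 2-fold upward and 3 downward, S100a9 (10.12, 7.87 and 8.81), Camp (5.90, 3.86 and 4.48) and Ngp (6.47, 4.81 and 4.79). The 6 within 2-fold held the brightest genes of the list, Mpo (12.36, 12.52 and 12.45), Ctsg (11.57, 12.08 and 11.84), Prtn3 (11.38, 11.85 and 11.73) and Elane (11.03, 11.41 and 11.21). LT-HSC genes were lower, with 2 of 14 past 2-fold downward, 0 upward and a median of -0.52. The 2 were Hlf (9.92, 7.92 and 8.02) and Pdzk1ip1 (8.45, 6.24 and 6.68), while Procr (7.15, 5.42 and 6.33) and Meis1 (9.62, 8.36 and 8.78) passed 2-fold downward on the CDR array. Among antibody-secreting cell genes, Jchain read 9.79, 7.65 and 9.37, Mzb1 6.50, 5.22 and 6.06, and Pou2af1 5.67, 4.65 and 6.11. Of these genes, 0 of 8 passed 2-fold upward between the FLASH and non-irradiated arrays. Housekeeping genes had a median of 0.10, with Tfrc, the transferrin receptor, 1.31 higher. The part that cell composition of the sorted samples had in the members' differences was not tested.

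**Figure D4:**
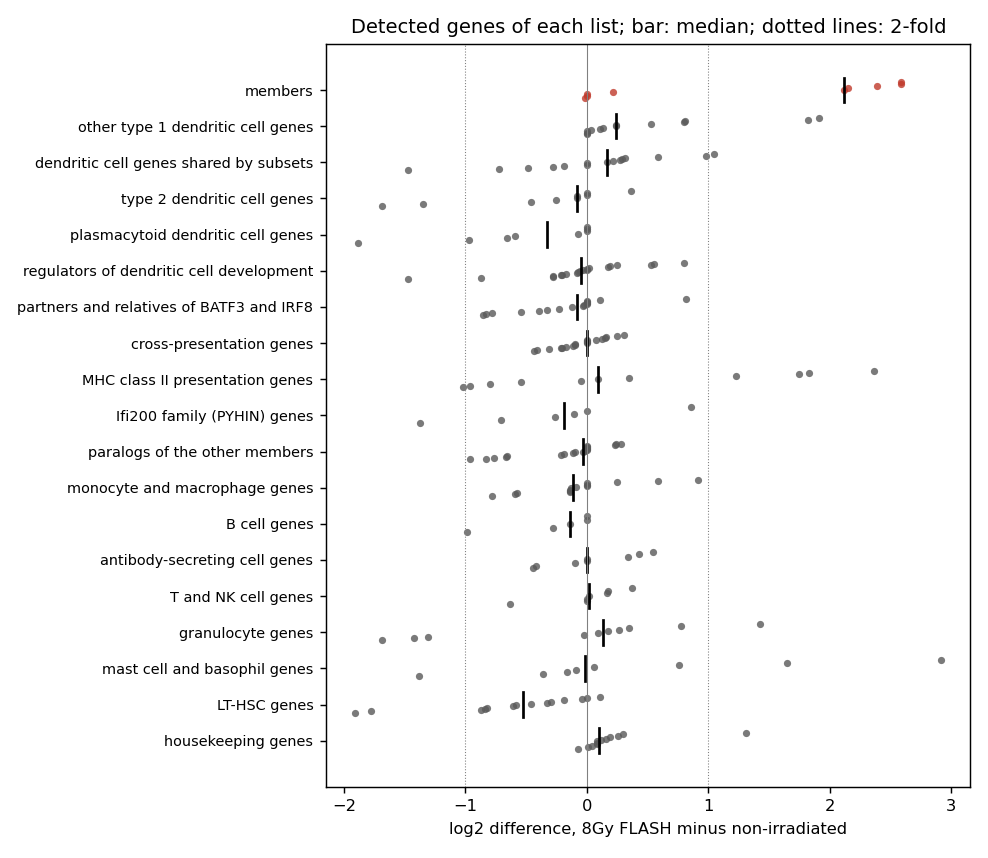
Log2 difference of the FLASH minus the non-irradiated array (horizontal axis) for every detected gene of the members and of the 18 lists (vertical axis). Each point is 1 gene, the black bar is the median of the list, and dotted lines mark 2-fold. Of the members, 5 lie above 2-fold and 4 near 0, and the medians of the 18 lists lie between -0.52 and 0.24.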

How the data were processed

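Gene expression was measured in LT-HSCs on Affymetrix whole transcript arrays, 1 for each of the 3 groups, which the sample titles name. Per the labels' protocols, biotin-labelled cDNA was made from total RNA. The authors deposited 1 processed table with levels taken here as log2 from their range, and Partek, with no version, is named in the submitters' processing notes. How scans were background-corrected, summarised and normalised is not given in the sources used here. Of 25206 probe sets, 23185 were paired with 1 symbol by the platform annotation and 2021 stayed unnamed, and no probe set had several.

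No further scaling was applied, and every difference is one of deposited log2 levels. Detection was set at the 95th percentile of 1364 receptor genes assumed to be unexpressed, and folds against dimmer arrays are bounds. Members and the 18 gene lists were chosen with earlier results of these data known. Named are all members and, per list, the genes at least 2-fold apart between any arrays (the largest 4), preset markers and the 10 profiles nearest to Clec9a. Other names, the examples within 2-fold included, were chosen after their values were seen; the rule had allowed up to 4 of the brightest, and few of these are given. The sum of levels is over measured genes on the linear scale. Each count was repeated after quantile normalisation, cyclic loess or median centring (limma 3.58.1, R 4.3.3), with an offset of 32, without a filter or at the 99th percentile, with dim values set to the detection level, and at 1.5-fold and 3-fold. Fold counting was tested on simulated data. Python 3.11.15, numpy 2.4.6, pandas 2.3.3 and matplotlib 3.10.9 were used. Precision is limited by having 3 arrays.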

Additional observations from a re-analysis of the deposited data

How the results depend on the processing

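Under median centring, quantile normalisation and cyclic loess, the difference of each of Clec9a, Naaa, Plbd1, Ifi205 and Gpr141b kept its direction in all 3 comparisons. All 5 passed the fold threshold between the FLASH and non-irradiated arrays under each alternative, including the offset of 32 and 3-fold. The count for CDR against non-irradiated was 4 and became 1 with the offset of 32 and 1 at 3-fold. The count for FLASH against CDR was 3 and became 1 with the offset of 32, 5 at 1.5-fold and 0 at 3-fold. An added offset shrinks differences of dim genes by construction. The sign of the smallest differences, those of Irf8 in all 3 comparisons and of Wdfy4 in both against the non-irradiated array, turned between scalings, within 0.06. The stepwise count of all detected genes was 30 and became 9 with the offset, with 3 members in place of 5. No paired analysis was possible because each group has 1 array, and leaving out a replicate was not possible for the same reason.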
